A study of Mus musculus with 6 samples.

Results

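Ryr1, Atp2a1 and Cacna1s encode the calcium machinery of excitation-contraction coupling in skeletal muscle, and their chromatin was examined here for ubiquitylated histone H2B (H2Bub). The members are these 3 genes, taken by name and by their intervals on mouse genome build mm9. They make up 25 of the 250807 windows of 10 kb that held reads. The cells were C2C12, an established line of mouse myoblasts whose cells join into multinucleate myotubes in low serum, and H2Bub was mapped by sequencing immunoprecipitated chromatin. The series compares growing myoblasts (MB, 10% fetal bovine serum, harvested near 40% confluency) with myotubes (MT, 96 h in 2% horse serum), with 3 libraries per group. All 6 libraries came from chromatin cut with micrococcal nuclease, which leaves mostly single nucleosomes, and from the same antibody product, though the labels give each library its own lot number. Both groups are this 1 line, without any genetic change in the labels, and the labels do not give the share of cells that had fused. The libraries carry replicate numbers, but nothing says that they came from separate cultures, so a p-value here weighs a difference only against the spread of these samples, and that spread may be technical.

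In a muscle fibre an action potential is sensed in the transverse tubule by the L-type calcium channel, whose pore and voltage sensors are formed by the product of Cacna1s. That channel opens the ryanodine receptor, the calcium release channel of the sarcoplasmic reticulum encoded by Ryr1. Calcium is then pumped back into the reticulum by the ATPase SERCA1, the product of Atp2a1, and the fibre relaxes. Transcripts of these genes are known to be low in growing myoblasts and to accumulate as myotubes form. H2Bub is laid down over gene bodies during transcription, so a marked gene usually shows a broad domain that starts just inside the gene. No transcripts were measured here, so each statement is about chromatin only. In bulk chromatin, fewer cells with the mark and less of the mark per cell cannot be told apart.

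Ryr1 was taken as chromosome 7, 29788000 to 29910500 (122.501 kb). Atp2a1 was chromosome 7, 133589000 to 133607000 (18.001 kb), and Cacna1s was chromosome 1, 137949000 to 138017000 (68.001 kb). Ryr1 and Atp2a1 lie on the minus strand and Cacna1s on the plus strand. No mm9 annotation was used here, so the ends of the intervals are rounded and exons, introns and exact start sites are not separated. Each interval was longer than the gene of that name in the RefSeq table of build GRCm38.p6. By gene order in that table, the coding neighbours are Rasgrp4 upstream and Map4k1 downstream of Ryr1, Sh2b1 upstream and Rabep2 downstream of Atp2a1, and Ascl5 upstream and Kif21b downstream of Cacna1s.

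The sequences just before the annotated starts are shown because a domain over a transcribed gene would begin downstream of them, and because E-boxes are the sites read by the myogenic factors of the MyoD family. RefSeq (GRCm38.p6) held a promoter for 3 of the 3 genes. The 250 bases upstream of each start are given from 5′ to 3′ on the strand of the gene, with E-boxes (CANNTG, both strands) in capitals.
Ryr1: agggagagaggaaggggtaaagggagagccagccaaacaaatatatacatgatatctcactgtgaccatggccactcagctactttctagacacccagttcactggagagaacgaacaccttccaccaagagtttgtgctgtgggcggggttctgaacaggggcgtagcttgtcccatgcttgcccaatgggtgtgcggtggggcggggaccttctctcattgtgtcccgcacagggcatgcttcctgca
Atp2a1: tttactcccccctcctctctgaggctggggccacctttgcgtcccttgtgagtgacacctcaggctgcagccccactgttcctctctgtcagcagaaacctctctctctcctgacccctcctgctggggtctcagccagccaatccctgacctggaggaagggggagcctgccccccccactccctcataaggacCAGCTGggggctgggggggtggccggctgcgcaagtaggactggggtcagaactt
Cacna1s: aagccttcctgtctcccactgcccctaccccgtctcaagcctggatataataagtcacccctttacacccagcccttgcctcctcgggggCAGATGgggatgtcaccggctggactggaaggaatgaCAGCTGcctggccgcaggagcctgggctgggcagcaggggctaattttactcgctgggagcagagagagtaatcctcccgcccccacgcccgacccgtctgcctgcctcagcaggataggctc
Atp2a1 had 1 E-box, CAGCTG, which began 55 bases before the start. Cacna1s had 2, CAGATG at 160 bases and CAGCTG at 123 bases before the start, and Ryr1 had 0 in this window. Of all 32851 RefSeq promoters cut to this length, 66.2% held a CANNTG and 13.0% held a CAGCTG, which is one of its forms. The MEF2 motif and TATAAA were in 0 of these 3 windows, and in 2.9% and 12.4% of all promoters. These matches describe letters in the window and no more. The deposited peak closest to a 5′ end inside an interval lay 12.4 kb from it, in Cacna1s.

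The authors' peak lists gave no myoblast peak in any of the 3 genes and a few short myotube peaks in 2 of them. The list for myoblasts, with 191324 peaks on chromosomes 1 to 19 and X, held 0 inside Ryr1, 0 inside Atp2a1 and 0 inside Cacna1s. Of the 250807 windows of 10 kb with reads, 208685 held no peak of either list, so a lack of peaks was usual. The list for myotubes, with 25743 peaks there, held 1 peak in Ryr1, 0 in Atp2a1 and 3 in Cacna1s. Those peaks covered 0.143% of the Ryr1 interval and 1.19% of the Cacna1s interval. Over all windows with reads, MT peaks covered 0.314% of the bases and MB peaks 4.13%. Each list is 1 set per group, without a score, so these counts have no replicate error.

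Around the genes, myoblast peaks lay on both sides, at distances that differed widely. Within 250 kb outside the intervals there were 62 MB peaks and 4 MT peaks around Ryr1, 47 and 2 around Atp2a1, and 81 and 17 around Cacna1s. Such counts were not made around other genes, so they are not read as many or few. The nearest MB peak was 50.02 kb upstream and 42.2 kb downstream of Ryr1, and 136.4 kb upstream and 149.0 kb downstream of Cacna1s. For Atp2a1 it was 9.9 kb upstream, on the side of Sh2b1, and 68.9 kb downstream. Without an MB peak inside, each interval necessarily lay in a wider stretch free of them, so only these distances describe the surroundings.

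Read density is given as reads per kb per 1000000 reads on chromosomes 1 to 19 and X (RPKM), a level that can be compared between genes of different length. The libraries held 8759266 to 15891204 such reads. As reference, windows of 10 kb without any peak averaged 0.216 ± 0.0201 RPKM in myoblasts and 0.364 ± 0.0116 RPKM in myotubes (SD, n = 3). MB peaks averaged 3.37 ± 0.351 RPKM in myoblasts and 0.815 ± 0.150 RPKM in myotubes. Peak-free sequence therefore took 1.69 times as large a share of the myotube reads. On this scale 184137 of the 191700 peak-free windows tested had a positive log2 fold change, and 1827 were called lower (limma voom).

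Cacna1s, the gene of the voltage-sensing channel, had the highest levels of the 3 genes in myotubes. Its level was 0.245, 0.220 and 0.392 RPKM in MB replicates 1 to 3, and 0.673, 0.509 and 0.669 RPKM in MT replicates 1 to 3. The groups did not overlap, and MB replicate 3 stood above the other MB libraries. The means were 0.286 ± 0.0930 RPKM in myoblasts and 0.617 ± 0.0935 RPKM in myotubes (SD, n = 3), a ratio of 2.16. The log2 fold change was 1.18 (SE 0.30, limma voom adjusted p = 0.000852), with all 3 MT libraries above all 3 MB libraries.

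For Ryr1, the gene of the release channel, the level was 0.156, 0.160 and 0.272 RPKM in the MB libraries and 0.333, 0.304 and 0.389 RPKM in the MT libraries, in order of replicate. Again the groups did not overlap and MB replicate 3 was the highest MB library. The means were 0.196 ± 0.0658 and 0.342 ± 0.0435 RPKM (SD, n = 3), a ratio of 1.74, close to that of peak-free sequence. The log2 fold change was 0.88 (SE 0.31, limma voom adjusted p = 0.00951). The call was lost without MB replicate 1 (0.76, limma adjusted p = 0.123), without MB replicate 2 (0.80, limma adjusted p = 0.109) and with limma-trend in place of voom (0.84, adjusted p = 0.0731).

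Atp2a1, the gene of the calcium pump, is the shortest of the 3 and has the fewest reads. Its 31, 46 and 98 reads in the MB libraries gave 0.185, 0.244 and 0.343 RPKM, and its 68, 50 and 128 reads in the MT libraries gave 0.431, 0.301 and 0.491 RPKM. The groups overlapped, since MT replicate 2 was below MB replicate 3. Counting error alone was wide here: 31 reads allow 0.126 to 0.263 RPKM (95% exact Poisson interval, which covers counting error only). The means were 0.257 ± 0.0794 and 0.408 ± 0.0976 RPKM (SD, n = 3). The log2 fold change was 0.63 (SE 0.22, limma voom adjusted p = 0.0087), higher in 2 of the 3 MT libraries than in every MB library. It was not called without MB replicate 1 (0.45, limma adjusted p = 0.0732) or without MT replicate 3 (0.50, limma adjusted p = 0.0537).

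**Figure D1:**
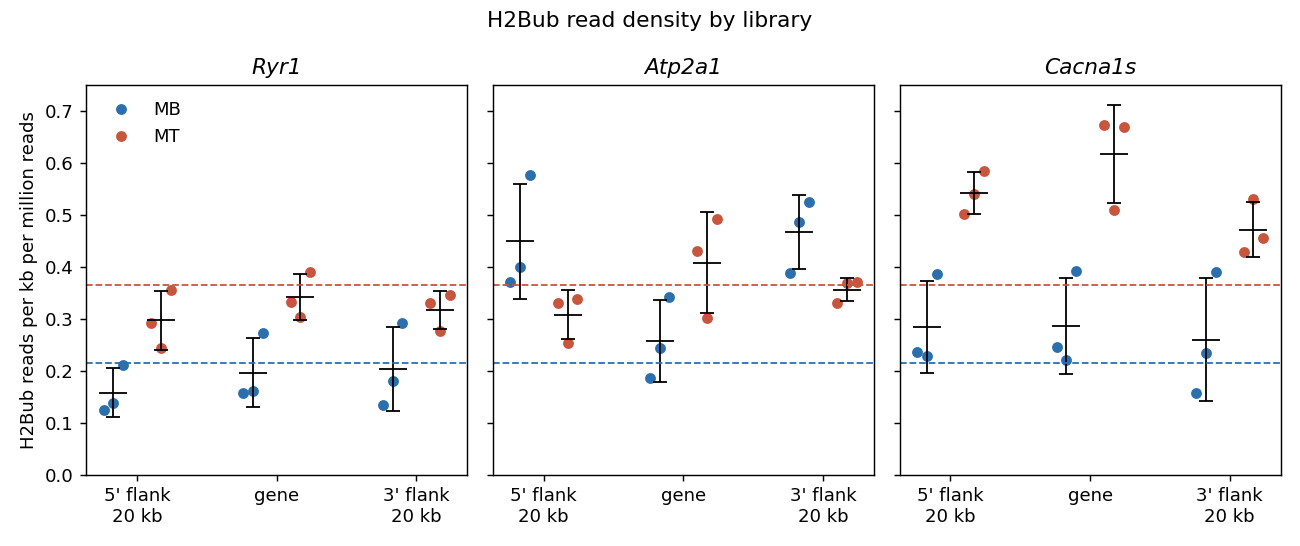
H2Bub read density (RPKM) of each gene and its 20 kb flanks, by library, with bars for mean ± SD (n = 3) and dashed lines for the mean of peak-free 10 kb windows in myoblasts (MB, blue) and myotubes (MT, red). Ryr1 and Cacna1s have no overlap between groups, with Cacna1s at 0.617 against 0.286. Both flanks of Atp2a1 are lower in every MT than in every MB library. The share of all windows without such overlap was not counted.

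These rises were measured against a genome in which most windows rose. Of all windows tested, 193103 of 233813 had a positive log2 fold change. How many of them also lacked overlap between groups was not counted. Whether the lack of overlap at Cacna1s and Ryr1 sets these genes apart from other sequence therefore cannot be told. The median log2 fold change was 0.78 over all 233813 windows tested and 0.84 over those without any peak. Relative to the median of all windows, Cacna1s was 0.40 higher on the log2 scale, Ryr1 0.10 higher and Atp2a1 -0.15, that is lower. Background scaling sets the libraries on the read density of the 10 kb windows, which are mainly peak-free, and lowers the median of all windows by 0.69. With it the log2 fold change was 0.49 for Cacna1s (limma adjusted p = 0.431), 0.18 for Ryr1 (limma adjusted p = 0.815) and -0.029 for Atp2a1 (limma adjusted p = 0.953). None of the 3 genes was called under that scaling, and Atp2a1 changed sign.

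Of the 25 windows that touch the genes, 23 were called higher in myotubes and 0 lower with scaling by total reads. At the ends of the genes 6 of these windows lie partly outside, and of the 19 wholly inside 18 were higher. Of all windows tested, 70.9% were called higher, 13.1% lower and 84% in either direction. Of those without any peak, 158775 of 191700 were higher and 1827 lower. The share of higher windows among the 3 genes was thus above that of all windows, but a call of higher was the usual result. By gene, 8 of 8 windows of Cacna1s, 13 of 14 of Ryr1 and 2 of 3 of Atp2a1 were higher, with medians of 1.11, 0.81 and 0.53 on the log2 scale. In windows of 5 kb the counts were 15 of 15, 14 of 26 and 1 of 5, beside 56.8% of all such windows. With background scaling 0 of the 25 were higher, against 2.22% of all windows, and 1 was lower, against 18.8% (21% in either direction). At an unadjusted p under 0.05, 4 of the 25 passed, beside 28.9% of all windows. The medians with background scaling were 0.42 for Cacna1s, 0.09 for Ryr1 and -0.19 for Atp2a1, beside 0.09 for all windows. All 8 Cacna1s windows kept a positive value, as did 138343 of all 233813 windows and 132553 of the 191700 without any peak. Without MB replicate 1, MB replicate 2 or MT replicate 3, 7 of the 8 were positive. These windows are adjacent parts of 1 gene in the same libraries.

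In Cacna1s the window with the largest log2 fold change was chromosome 1, 138000001 to 138010000, with 14, 25 and 58 reads in the MB libraries and 57, 47 and 99 in the MT libraries. Its log2 fold change was 1.26 (SE 0.24, limma voom adjusted p = 5.96e-05). The smallest was at 137950001 to 137960000, in the 5′ part of the gene, with 0.78 (limma adjusted p = 0.00267). The other 6 windows of the gene lay between these values.

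In Ryr1 the largest value was 1.36 at chromosome 7, 29840001 to 29850000, with 7, 15 and 34 MB reads and 22, 35 and 70 MT reads (SE 0.30, limma adjusted p = 0.000254). The smallest was 0.45 at 29820001 to 29830000 (limma adjusted p = 0.0827), the only Ryr1 window not called. That window holds the single MT peak of the gene. In Atp2a1 the values were 0.69 at chromosome 7, 133600001 to 133610000 (limma adjusted p = 0.00815), and -0.35 at 133580001 to 133590000 (limma adjusted p = 0.146). The latter lies mostly in the downstream flank and was the 1 window called lower with background scaling (-1.02, limma adjusted p = 0.000195).

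**Figure D2:**
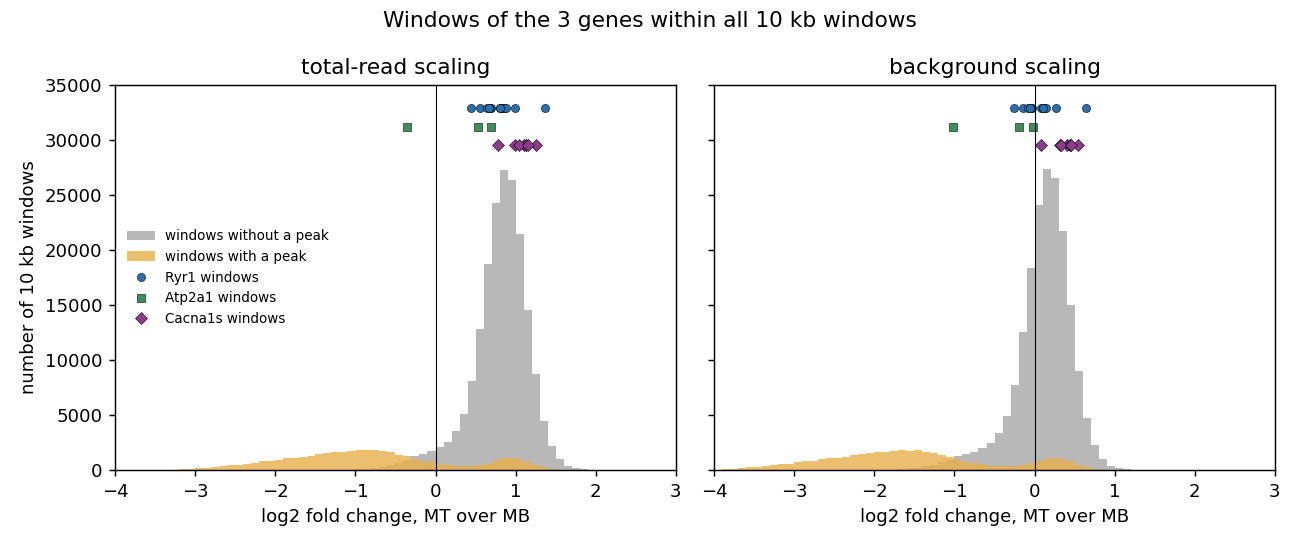
Number of 10 kb windows (vertical axis) by log2 fold change of myotubes over myoblasts (horizontal axis), for windows without and with a peak, under both scalings, with the 25 windows of the 3 genes as symbols above. The Ryr1 and Cacna1s symbols lie over the bulk of peak-free windows, with medians of 0.81 and 1.11 beside 0.84, and away from the lower values of windows with peaks.

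A ratio within each library avoids the choice of scaling. Each gene was divided by the mean density of the peak-free windows within 250 kb (34 or 35 windows). For Cacna1s this ratio was 0.949, 0.779 and 0.947 in the MB libraries and 1.31, 1.05 and 1.23 in the MT libraries. The groups did not overlap, and the means were 0.891 ± 0.0975 and 1.20 ± 0.136 (SD, n = 3; two-sided exact permutation p = 0.1). For Ryr1 it was 0.855, 0.779 and 0.859 against 1.14, 0.951 and 1.11, also without overlap (0.831 ± 0.0453 and 1.07 ± 0.103, SD, n = 3; exact permutation test, p = 0.1). For Atp2a1 the groups overlapped (0.984 ± 0.189 and 1.15 ± 0.187, SD, n = 3; exact permutation test, p = 0.3). With 3 against 3 libraries p cannot fall below 0.1, so none of these could pass 0.05. Such ratios were not computed for other genes, so how often the groups separate in them is not known. The ratios also depend on the density they were divided by. Around Ryr1 it was 0.235 ± 0.0716 RPKM in myoblasts and 0.320 ± 0.0293 RPKM in myotubes, with overlap (SD, n = 3). Around Cacna1s it was 0.319 ± 0.0838 and 0.513 ± 0.0289 RPKM, and around Atp2a1 0.258 ± 0.0325 and 0.350 ± 0.0319 RPKM. Over all peak-free windows the means were 0.216 and 0.364 RPKM, so the surroundings of Ryr1 and Atp2a1 rose by less. MT replicate 2 had the lowest of the MT ratios for each of the 3 genes. Against peak-free windows within 100 kb the Ryr1 ratio was 0.814 ± 0.0764 in myoblasts and 1.31 ± 0.0835 in myotubes (SD, n = 3; exact permutation p = 0.1), a difference of 0.496 in place of 0.237. For Cacna1s the difference instead shrank to 0.227 from 0.307, and the groups nearly touched (MB replicate 1 at 0.996, MT replicate 2 at 0.999). For Atp2a1 it was 0.191 in place of 0.170, and the groups overlapped (exact permutation p = 0.5).

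With the 20 kb flanks as background the Ryr1 difference was instead 0.018. Coding genes reach within 20 kb of Ryr1 and of Cacna1s in GRCm38.p6, so a ratio to these flanks is not a property of either gene alone. The flanks of Ryr1 were at 0.158 ± 0.0466 RPKM upstream and 0.203 ± 0.0812 RPKM downstream in myoblasts, and at 0.297 ± 0.0565 and 0.318 ± 0.0368 RPKM in myotubes (SD, n = 3). Divided by its flanks, Ryr1 was at 1.10 ± 0.105 in myoblasts and 1.12 ± 0.0506 in myotubes (SD, n = 3), with p = 0.9 by the two-sided exact permutation test. The flanks of Cacna1s were at 0.284 ± 0.0891 RPKM upstream and 0.260 ± 0.119 RPKM downstream in myoblasts, and at 0.542 ± 0.0409 and 0.471 ± 0.0527 RPKM in myotubes. Cacna1s over its flanks was 1.07 ± 0.157 and 1.23 ± 0.253 (SD, n = 3; exact permutation p = 0.5), and the groups overlapped. The upstream and downstream flanks of both genes were themselves called higher in myotubes, with log2 fold changes of 0.86 and 0.64 for Ryr1 and of 0.96 and 0.92 for Cacna1s (limma voom adjusted p of 0.000971, 0.00893, 0.000233 and 0.000733). With background scaling none of these 4 flanks was called (0.17 and -0.0028 for Ryr1, 0.29 and 0.29 for Cacna1s), and without MB replicate 1 the downstream flank of Ryr1 was not (limma adjusted p = 0.0760).

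Atp2a1 lay in a trough between denser flanks in myoblasts, and on average it was no longer below them in myotubes. These flanks are the sides of the coding genes Sh2b1 and Rabep2, so a ratio to them is not a property of Atp2a1 alone. Of the 2 flanks, the upstream one alone held an MB peak. Its upstream flank, on the side of Sh2b1, was at 0.372, 0.4003 and 0.576 RPKM in the MB libraries and at 0.331, 0.254 and 0.339 RPKM in the MT libraries. Its downstream flank, on the side of Rabep2, was at 0.388, 0.486 and 0.525 RPKM in the MB libraries and at 0.331, 0.368 and 0.370 RPKM in the MT libraries. The groups did not overlap in either flank, with every MT library below every MB library, whereas they overlapped in the gene between them. How many other stretches of the genome show such a lack of overlap was not counted. The log2 fold change was -0.49 upstream (SE 0.20, limma voom adjusted p = 0.0257) and -0.36 downstream (SE 0.20, limma voom adjusted p = 0.0867), so only the upstream flank was called. That call was lost without MB replicate 2 (-0.52, limma adjusted p = 0.0622), without MB replicate 3 (-0.34, limma adjusted p = 0.122), without MT replicate 2 (-0.41, limma adjusted p = 0.0702) and when fitted with 5 kb windows (-0.50, limma adjusted p = 0.0713). With background scaling both flanks were called lower, at -1.20 (limma adjusted p = 3.53e-05) and -1.07 (limma adjusted p = 0.000188), while the gene was at -0.029 and not called. Of all 10 kb windows tested, 13.1% were called lower with total reads and 18.8% with background scaling. Among the 191700 without any peak, 1827 and 10022 were, so most lower calls fell in windows that hold a peak.

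Divided by its flanks, Atp2a1 was at 0.489, 0.550 and 0.622 in the MB libraries and at 1.30, 0.966 and 1.39 in the MT libraries. The means were 0.553 ± 0.0669 and 1.22 ± 0.223 (SD, n = 3; two-sided exact permutation p = 0.1, the smallest possible). In bins of 2 kb, chosen for description after the values were seen, the myoblast mean was 0.724 RPKM at 11 kb and 0.790 RPKM at 9 kb before the 5′ end, 0.237 RPKM at 1 kb before it, and at most 0.304 RPKM inside the gene. Beyond the 3′ end it reached 0.827 RPKM at 27 kb from the 5′ end. The upstream flank held the 1 MB peak found in any of the flanks, at chromosome 7, 133616918 to 133617549 (631 bp), with 13, 14 and 16 reads in the MB libraries and 5, 2 and 3 in the MT libraries.

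**Figure D3:**
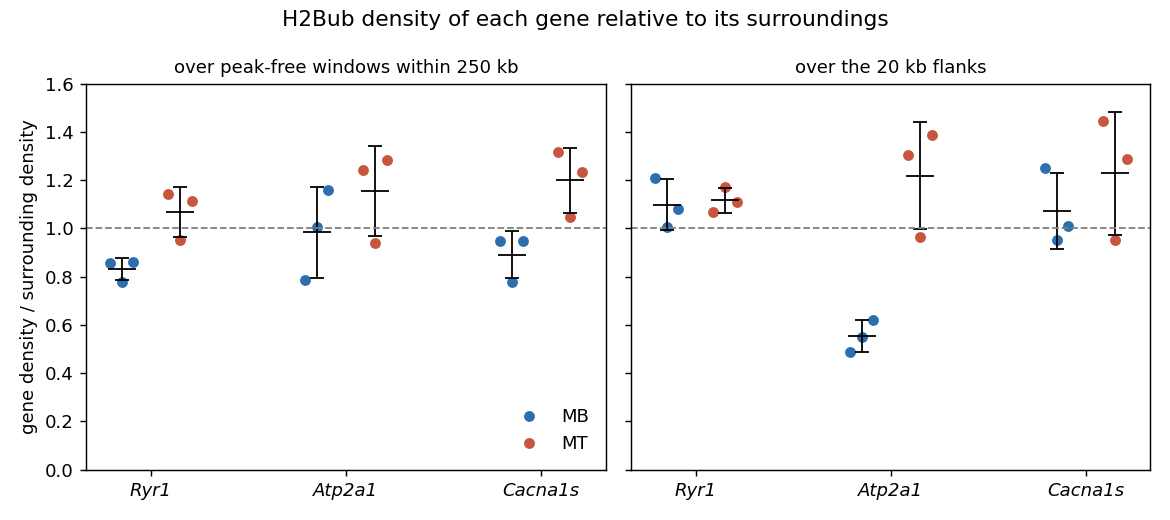
Density of each gene divided by peak-free windows within 250 kb (left) or by its own 20 kb flanks (right), by library, with bars for mean ± SD (n = 3); the dashed line marks a ratio of 1. Atp2a1 over its flanks has 0.553 in myoblasts and 1.22 in myotubes, whereas Ryr1 over its flanks has 1.10 and 1.12.

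**Figure D4:**
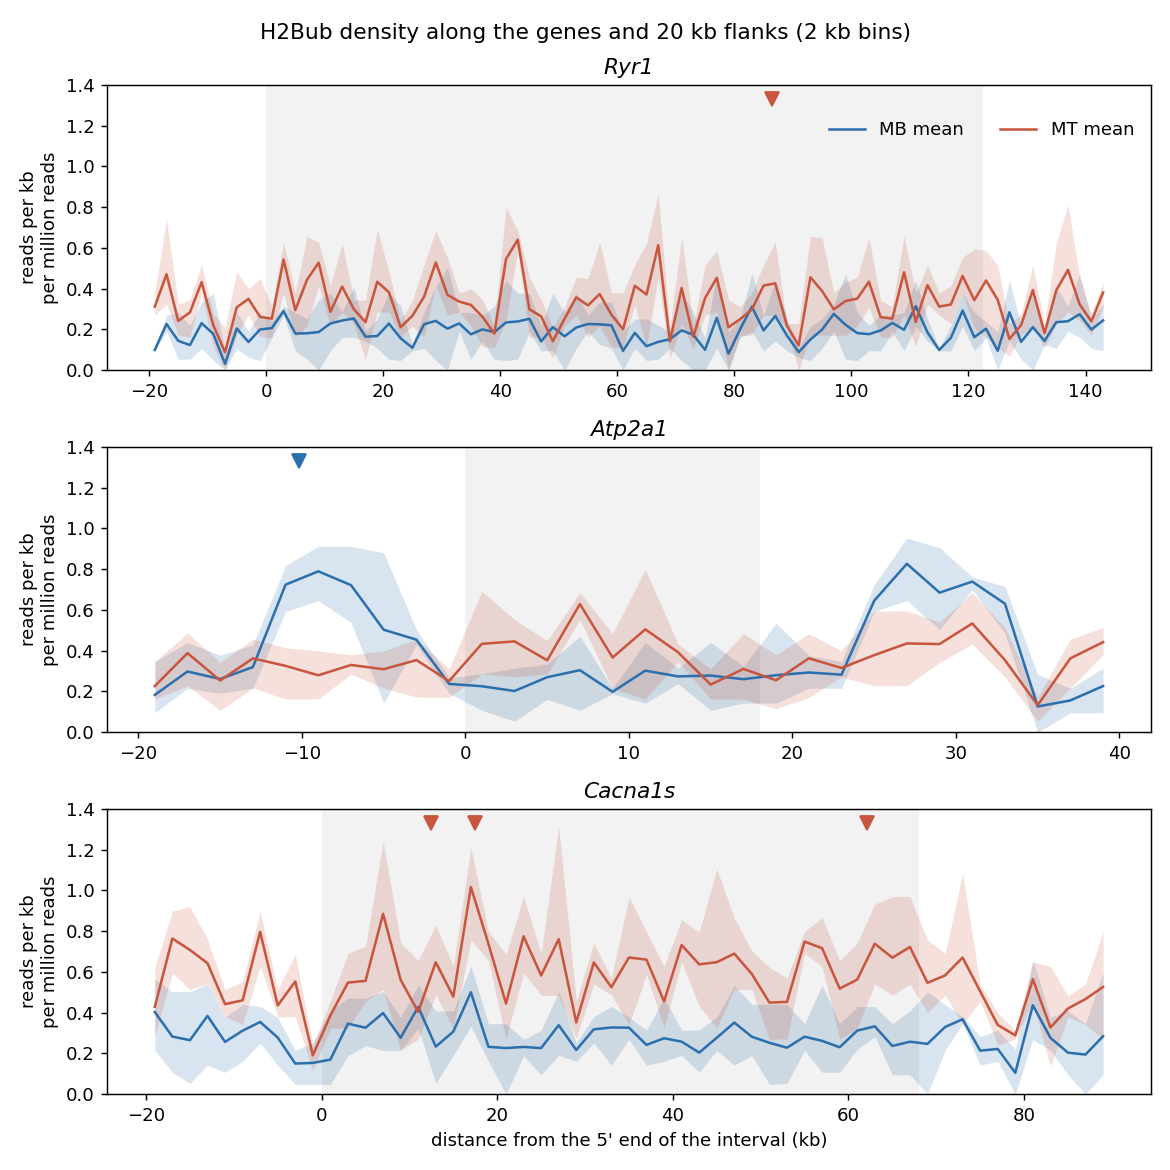
H2Bub density in 2 kb bins along each gene (grey) and its flanks against distance from the 5′ end in kb, as the mean of 3 libraries (line) and their range (shading), with triangles for MT peaks (red) and the MB peak (blue). Myoblast density beside Atp2a1 reaches 0.827 and stays at or below 0.304 inside the gene.

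The shape along the genes did not differ detectably between the groups. Each gene was divided into 3 equal parts. The part at the 5′ end of Cacna1s had 0.312 ± 0.111 RPKM in myoblasts and 0.615 ± 0.107 RPKM in myotubes, and the part at the 3′ end had 0.275 ± 0.111 and 0.622 ± 0.0760 RPKM (SD, n = 3). The ratio of the 5′ to the 3′ part was 1.17 ± 0.268 and 0.986 ± 0.0777 for Cacna1s, and 0.983 ± 0.181 and 1.03 ± 0.147 for Ryr1 (SD, n = 3; exact permutation tests, two-sided, p = 0.3 and p = 0.8). For Atp2a1, with as few as 6 reads in a part, it was 0.867 ± 0.412 and 1.30 ± 0.164 (SD, n = 3; two-sided exact permutation p = 0.3). The groups overlapped for each gene, and the 3 MT libraries of Atp2a1 were all above 1 (1.19, 1.21 and 1.48). Single libraries moved the differences between groups, which did not overlap for Cacna1s without MB replicate 1 (difference -0.299 in place of -0.185) or for Atp2a1 without MB replicate 2 (0.638 in place of 0.429), and without MB replicate 2 the Cacna1s difference was -0.0375.

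The 4 MT peaks inside the genes rested on few reads. In Ryr1 the peak at chromosome 7, 29823975 to 29824150 (175 bp), lay 86.4 kb from the 5′ end and held 0, 1 and 3 reads in the MB libraries and 6, 1 and 6 in the MT libraries. In Cacna1s the peak at chromosome 1, 137961306 to 137961528 (222 bp), held 0, 1 and 0 MB reads and 2, 1 and 7 MT reads. The peak at 137966390 to 137966591 (201 bp), 17.5 kb from the 5′ end, held 0, 1 and 3 MB reads and 5, 3 and 12 MT reads. The peak at 138010909 to 138011294 (385 bp), near the 3′ end at 62.1 kb, held 3, 0 and 1 MB reads and 6, 5 and 9 MT reads.

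These peaks were 1.99 to 6.69 times as dense in myotubes as the gene around them, which describes how they were found. None of the 4 passed the floor on low counts, so 0 were tested. Without that floor 4 of 4 were called higher (limma voom), where 3.16% of all regions were, but they were chosen in the same myotube libraries, so nothing is read from that. Of the 4 peaks, 1 was wider than the median MT peak of 276 bp. Leaving out the reads in these peaks changed the log2 fold change of Cacna1s from 1.18 to 1.15 and that of Ryr1 from 0.88 to 0.87, so the level of the genes did not rest on them.

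Among the genes, the order of the mean levels was Ryr1, Atp2a1 and Cacna1s from low to high in both groups. In myoblasts neighbours in that order differed by less than the spread between libraries (0.196 ± 0.0658, 0.257 ± 0.0794 and 0.286 ± 0.0930 RPKM). The genes share part of that spread, as MB replicate 3 was the highest MB library for each. In myotubes Ryr1 and Atp2a1 did not differ beyond their spread, and Cacna1s stood above both. Within each library Cacna1s was denser than Ryr1 in 6 of 6 cases, by a ratio of 1.46 ± 0.0994 (MB) and 1.81 ± 0.190 (MT; SD, n = 3). The change in this ratio had p = 0.1 (exact permutation test, two-sided; 0.15 adjusted over 3 pairs). Atp2a1 against Cacna1s was 0.912 ± 0.179 in myoblasts and 0.655 ± 0.0734 in myotubes without overlap (two-sided exact permutation, n = 3, p = 0.1, adjusted 0.15), but the groups overlapped with the intervals shortened by 1 kb at each end (p = 0.3). Atp2a1 against Ryr1 was 1.32 ± 0.176 and 1.18 ± 0.168 with overlap (two-sided exact permutation, n = 3, p = 0.6). By library this ratio was 1.19, 1.52 and 1.26 in myoblasts and 1.30, 0.989 and 1.26 in myotubes.

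MB replicate 3 was higher than the other myoblast libraries at these genes and also in their surroundings. The local peak-free density around Cacna1s was 0.259, 0.283 and 0.414 RPKM in the MB libraries, and around Ryr1 it was 0.183, 0.206 and 0.317 RPKM. Over all peak-free windows the same libraries were at 0.222, 0.193 and 0.232 RPKM. The part of MB replicate 3 in the results was measured by leaving it out: the log2 fold change became 1.38 for Cacna1s, 1.08 for Ryr1 and 0.86 for Atp2a1 (limma voom adjusted p of 0.00162, 0.0107 and 0.00216). MT replicate 3 was likewise the highest MT library at Ryr1 and Atp2a1, but not at Cacna1s. Its local peak-free density was the highest of the MT libraries around Cacna1s (0.543 RPKM), Ryr1 (0.350 RPKM) and Atp2a1 (0.384 RPKM). The replicate 3 libraries were the deepest of their groups (15891204 and 14467774 reads), and a part of depth in this was not tested.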

How the data were processed

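For each library the authors deposited the mapped reads as positions, 1 line a read with its strand, on build mm9 per the submitters' processing notes, and 1 peak list per group with boundaries only. The aligner, filters, peak caller and threshold were not given in the sources used here. No read line was repeated (0 in each library), so densities are of distinct positions. Reads were counted here in the 3 intervals, their 20 kb flanks, 10 kb windows and merged peak regions. The intervals and flanks were fitted together with all windows by limma 3.58.1 (voom, two-sided, R 4.3.3), with total reads as library size and Benjamini-Hochberg adjustment over all rows at 0.05. The spread lent to an interval thus comes from windows with similar read numbers, many of which hold peaks. Windows and regions had to reach 10 reads, scaled to a library of median size, in 3 libraries and 15 reads in all. The planned rule for naming took the 3 genes, in each the windows with the highest and lowest log2 fold change, every MT peak inside, and the widest MB peaks, of which there were 0. Other excitation-contraction genes were to be measured only with an mm9 annotation and were not analysed here. The fit was tested on simulated data. Members, lists and tests were chosen with earlier results of these data known. Input libraries were not analysed here. Python 3.11.15, NumPy 2.4.6, SciPy 1.17.1, pandas 2.3.3 and matplotlib 3.10.9 were used.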

Additional observations from a re-analysis of the deposited data

How the results depend on the processing

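Scaling decided the calls. With background scaling the log2 fold change was 0.18 for Ryr1, -0.029 for Atp2a1 and 0.49 for Cacna1s, and 1 window was called in place of 23. With a replicate block added, chosen after the data were seen, these became 0.20, 0.00105, 0.49 and 2 windows. Limma-trend gave 0.84 for Ryr1, no longer past the threshold. The replicate block alone, with total reads, changed no call (0.92, 0.68 and 1.22, and 23 windows). Same-numbered libraries had correlations of 0.000452, -0.169 and 0.15 of their deviations over windows, and the samples were therefore treated as unpaired. With 1 library left out the values ran from 0.76 to 1.08 for Ryr1, 0.45 to 0.86 for Atp2a1 and 1.05 to 1.38 for Cacna1s, and 16 to 23 windows were called. With background scaling as well, chosen later, they ran from -0.052 to 0.25, -0.35 to 0.20 and 0.33 to 0.61, with 1 to 3 windows. The difference between groups in the 5′ to 3′ ratio of Ryr1 was 0.05 and changed sign with 5 parts in place of 3 (-0.0157) and over the libraries left out (-0.0473 to 0.133). With a library left out it ran from -0.299 to -0.0375 for Cacna1s and from 0.226 to 0.638 for Atp2a1. Without the floor 4 peak regions were tested and called, and 1 of the 4 MT peaks was in the upper 50% by width. For the changes with limma-trend and with libraries left out, the cause was not tested. Under the other alternatives run, the 3 fold changes and the ratios kept their direction, and the permutation tests could not pass 0.05 at this number of libraries. Read numbers were low at Atp2a1 (31 to 128 reads a library) and at the 4 MT peaks (0 to 12). The SE of the Atp2a1 fold change was nonetheless the smallest of the 3 genes, at 0.22 beside 0.31 for Ryr1 and 0.30 for Cacna1s.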
